A study of Mus musculus with 15 samples.

Results

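Arc, Homer1 and Nptx2 are 3 synaptic genes whose RNA is known to be made in response to neuronal activity. They were taken from the deposited table by gene name, through the GENCODE M21 annotation of the mouse genome (mm10), and every row of the table that carried 1 of the 3 names was kept. This gave 7 of the 10370 listed transcripts, 2 of Arc, 4 of Homer1 and 1 of Nptx2, and 3 of the 7740 listed genes. The annotation holds 12 models of Homer1, of which 4 were listed. Both models of Arc and the single model of Nptx2 were listed. The genes were not chosen by a threshold on these values, but earlier results of these data were known when they were chosen.

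The study asked how repeated head impact changes gene expression in the cortex 1 month later. There were 7 libraries of Sham and 8 of HF-HI, made from dissected cortex of male mice that were all given as 12 weeks of age, of a strain given as C57BL/6 in the labels and C57Bl/6J in the study's methods. HF-HI, high-frequency head impact, is a closed-head model in which mice under isoflurane receive series of impacts on successive days. Isoflurane and handling were common to both groups, which differed in whether impacts were given.

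Arc encodes a protein that drives removal of AMPA-type glutamate receptors from the synapse, and its RNA is transported into dendrites. Homer1 encodes a scaffold of the postsynaptic density. Long Homer1 proteins carry a C-terminal coiled coil through which they join and link metabotropic glutamate receptors to calcium stores, whereas short forms, of which Homer1a is the best known, lack the coiled coil, bind the same partners and uncouple them. Nptx2 encodes a secreted pentraxin that gathers AMPA receptors at excitatory synapses on parvalbumin interneurons. Arc and the short forms of Homer1 are textbook immediate early RNAs, low at rest and made within minutes of synaptic activity, while the long forms are made at a steadier rate.

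The 4 listed Homer1 transcripts lie on chromosome 13, on the plus strand, and share an exon of 140 bases (93355940 to 93356079), after which their coding sequences part. Homer1-204 (ENSMUST00000102752, 93304495 to 93360462) reads on past the end of this exon, adds 31 coding bases and stops, for a protein of 186 codons. Homer1-206 (ENSMUST00000109493, 93304102 to 93367134) joins an alternative last exon and codes for 233 codons. Both are short forms, defined here as coding for fewer than 250 codons. Homer1-203 (ENSMUST00000080127, 93304799 to 93403681) and Homer1-202 (ENSMUST00000079086, 93308034 to 93405129) are long forms of 366 and 370 codons. Homer1-203 carries 1 further exon of 36 bases, and Homer1-202 has a first exon of its own. Reads from these ends are among those that tell the forms apart, beside those from the differing first exons and non-coding parts. Past the shared exon, Homer1-204 reads into sequence that the other listed forms splice out at that point. The libraries were made from total RNA, and the part of unspliced Homer1 RNA in the Homer1-204 counts was not tested. The ends are printed below with the last 12 shared bases in lower case and the bases that follow in capitals, up to 60 coding bases (GENCODE M21 transcripts).
Homer1-204: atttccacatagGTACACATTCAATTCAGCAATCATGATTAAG
Homer1-206: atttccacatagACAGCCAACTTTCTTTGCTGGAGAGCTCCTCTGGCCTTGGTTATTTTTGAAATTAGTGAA
Homer1-203: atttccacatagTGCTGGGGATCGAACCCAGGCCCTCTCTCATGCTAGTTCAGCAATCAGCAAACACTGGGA
Homer1-202: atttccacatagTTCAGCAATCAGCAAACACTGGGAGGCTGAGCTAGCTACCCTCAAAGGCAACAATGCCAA
In Homer1-204 the stop codon TAA follows directly. The first bases printed for Homer1-202 recur in Homer1-203 after its 36-base exon.

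**Figure D1:**
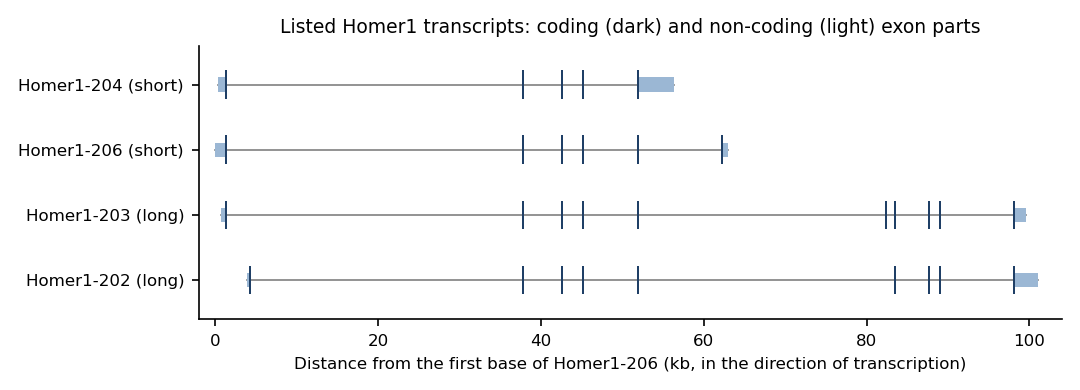
Exon structure of the 4 listed Homer1 transcripts, with the distance from the first base of Homer1-206 in kb on the x axis and 1 transcript a row. Dark bars are coding and light bars non-coding parts of exons, and bars narrower than 0.25 kb are drawn at that width. The short forms Homer1-204 and Homer1-206 end after the fifth and the sixth exon, and the long forms go on to a shared set of downstream exons.

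The start of the Homer1 gene is represented by a pair of RefSeq promoter windows (GRCm38.p6), and RefSeq windows were matched for 1 of the 3 genes. They are shown because Homer1-202 starts at the second window, whereas the other listed transcripts start downstream of the first, of which Homer1-206 lies nearest, 345 bases past the start site. The 250 bases before each start site are printed on the plus strand, with each TGACG on either strand, the half-site of the cAMP response element, in capitals.
Homer1 chr13:93303507-93303756: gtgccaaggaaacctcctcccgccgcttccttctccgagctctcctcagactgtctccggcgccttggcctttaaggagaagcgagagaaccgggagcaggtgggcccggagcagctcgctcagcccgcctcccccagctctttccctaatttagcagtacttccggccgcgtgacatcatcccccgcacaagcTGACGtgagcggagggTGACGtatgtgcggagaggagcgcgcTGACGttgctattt
Homer1 chr13:93307784-93308033: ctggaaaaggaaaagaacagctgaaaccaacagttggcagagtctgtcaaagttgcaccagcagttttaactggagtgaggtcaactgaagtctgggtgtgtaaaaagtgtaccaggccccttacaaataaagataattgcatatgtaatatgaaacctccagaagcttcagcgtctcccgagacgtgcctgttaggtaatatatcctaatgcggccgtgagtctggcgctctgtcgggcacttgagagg
The first window holds 3 copies of TGACG, at 56, 40 and 14 bases before the start site, and the second holds 0. Among the 32851 RefSeq windows of the same length, 17.8% hold at least 1 copy and 0.688% hold at least 3. Neither window holds the full palindrome TGACGTCA, found in 1.55% of windows, which overlaps the half-site, or the Egr motif GCGTGGGCG, found in 0.536%. These matches describe the letters alone.

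The 2 Arc transcripts, Arc-201 (ENSMUST00000023268, chromosome 15, 74669083 to 74672568, minus strand) and Arc-202 (ENSMUST00000110009, 74669083 to 74672570), encode the same protein of 396 codons. They have 3052 bases in common, and differ only in 2 bases at the 5′ end of Arc-202 and 3 bases of the second exon found in Arc-201 alone. The division of Arc reads between them was made by the authors' quantification program on these few bases, so the sum of both is the safer measure of the gene. Nptx2-201 (ENSMUST00000071782) lies on chromosome 5, plus strand, 144545902 to 144557478, and codes for 429 codons. Homer1 overlaps 2 other annotated genes on the same strand, Gm47075 and Gm47088, within introns. Levels below are normalized counts, reads divided by the size factor of the library, recovered from the deposited variance-stabilized values.

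The libraries held 5798810 to 10582858 reads on listed transcripts in Sham and 3496103 to 8666307 in HF-HI. The size factor, the relative depth of a library, was 0.818 to 1.47 and 0.501 to 1.22, with a difference of mean log2 size factor of -0.55 (exact permutation test, two-sided, p = 0.0280). The labelled tissue was matched by its markers, since all 5 markers of excitatory cortical neurons were listed, summing to 7170 to 8341 in Sham and 7033 to 8464 in HF-HI. Sham replicates 1 and 2 and HF-HI replicates 2 and 5 held 6589 to 8663 normalized counts of Ttr, the choroid plexus transthyretin, against 21.0 to 176 in the other 11. Folr1, Kl and Aqp1, the other choroid plexus markers, were not listed. HF-HI replicate 2 stood apart on the first principal component. Summed markers of striatum, 5 of 6 listed, spanned 2365 to 4163 in Sham and 2034 to 3910 in HF-HI (exact permutation test of the mean log2 level, two-sided, p = 0.187), with Penk lower at an unadjusted p (limma-voom p = 0.0367, adjusted p = 0.490) and Drd2 not listed. Summed markers of microglia, 3 of 4 listed, spanned 807 to 1004 in Sham and 709 to 950 in HF-HI (exact permutation test of the mean log2 level, two-sided, p = 0.135), with P2ry12 lower at an unadjusted p (limma-voom p = 0.0436, adjusted p = 0.509) and Aif1 not listed. The part of the microglial markers in the results that follow was not tested. Size factor and striatal markers were entered as covariates in the fits of transcripts and genes, and libraries were left out. Shares were adjusted for size factor but not for striatal markers. Values from these fits are given where they bear on a result.

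Of the 3 genes, Arc was the one with an unadjusted p below 0.05 between the groups, higher in HF-HI, and it did not pass after adjustment. Summed over both transcripts, Arc averaged 1896 ± 654 normalized counts in Sham (SD, n = 7) and 3198 ± 456 in HF-HI (SD, n = 8), a ratio of means of 1.69. The Sham libraries ran from 695 through a median of 1928 to 2602, and the HF-HI libraries from 2596 through 3151 to 3890. The groups met only at their edges, since 7 of 8 HF-HI libraries were above every Sham library and the remaining one, HF-HI replicate 2, was just under the highest, Sham replicate 4. How many of all listed genes reach 7 of 8 was not counted. Such partial counts were not made over all features for the results below either. The log2 difference of summed reads was 0.83 ± 0.20 (SE, 95% confidence interval 0.39 to 1.27, limma-voom unadjusted p = 7.88e-04). The adjusted p over all 7740 genes was 0.202 (limma-voom, Benjamini-Hochberg), above the threshold of 0.1. Taken alone, the exact permutation test of the log2 sums gave p = 3.11e-04 (two-sided, over all 6435 splits). Of all listed genes 730, or 9.43%, had an unadjusted p below 0.05 in this fit, 5.19% higher and 4.24% lower in HF-HI, and Arc was the 1 of the 3 genes that did. Of all listed genes 1, or 0.0129%, passed the adjusted threshold. The latter gene, chosen here after its value was seen, was Txndc5.

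In these bulk samples, fewer cells of a type and less RNA per cell cannot be told apart, and a higher level may be read in the same 2 ways.

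Arc-201 took 465 to 1912 normalized counts in Sham, with a median of 1431, and 1688 to 2570 in HF-HI, with a median of 1907. Of the HF-HI libraries, 4 lay above every Sham library, and the ranges overlapped between 1688 and 1912. On the variance-stabilized log2 scale, which compresses low values, the difference was 0.41 ± 0.12 (SE, limma, unadjusted p = 0.00337, adjusted p = 0.351 over all 10370 transcripts). Arc-202 took 231 to 814 in Sham, with a median of 673, and 794 to 1466 in HF-HI, with a median of 1132. Of the HF-HI libraries, 7 lay above every Sham library, and replicate 3, at 794, was the exception. Full separation, with every HF-HI library above every Sham library, was found in 0.0964% of all listed transcripts, and Arc-202 was not among them. How many transcripts reach the partial separation of Arc-202 was not counted. The Arc-202 difference was 0.40 ± 0.08 (SE, limma, unadjusted p = 2.27e-04, adjusted p = 0.214). By p, Arc-202 stood at place 11 and Arc-201 at place 97 of the 10370 transcripts.

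Of the 7 transcripts, 2 had an unadjusted p below 0.05, both of Arc and both higher in HF-HI, where 8.83% of all listed transcripts had such a p, 4.94% higher and 3.9% lower. No transcript of the 10370 passed the adjusted threshold of 0.1 by limma or by limma-voom, and by limma 916 had an unadjusted p below 0.05. Both Arc transcripts were above the Sham median in 8 of 8 HF-HI libraries, a pattern found in 3.8% of all transcripts, and the Arc sum showed it as 4.06% of genes did. The share of Arc reads given to Arc-202 was 32.6% ± 6.90 in Sham and 35.4% ± 5.52 in HF-HI (exact permutation test, two-sided, p = 0.393), so that the division between them was not shown to differ.

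The Sham group was wide in Arc. Its coefficient of variation for Arc-201 was 39.5%, where the median Sham coefficient of transcripts of like mean was 5.79%, and in HF-HI it was 17.3% against 6.90%. Sham replicate 2, 1 of the libraries with high Ttr, was the lowest in both Arc transcripts. Without it the log2 difference of summed reads was 0.62, and without all 4 libraries with high Ttr it was 0.64 (limma-voom unadjusted p = 3.33e-04, adjusted p = 0.191). In those 11 libraries the highest of 5 Sham values was 2602 and the lowest of 6 HF-HI values was 2634. This split was chosen after seeing the data, and separation in it was not counted over all genes. Over all libraries the Arc sums of the groups overlapped. With log2 size factor as a covariate the difference was 0.85 (unadjusted p = 0.00365, adjusted p = 0.506, limma-voom). A size factor above 1 was found in 6 Sham and 3 HF-HI libraries. Among these the difference was 0.75 (limma-voom adjusted p = 0.936, unadjusted p = 0.0309). There Arc-201 missed the unadjusted level (limma adjusted p = 0.963, unadjusted p = 0.0838). Over the alternatives that give one, the adjusted p of the Arc sum lay between 0.113 and 0.936 (limma and limma-voom).

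**Figure D2:**
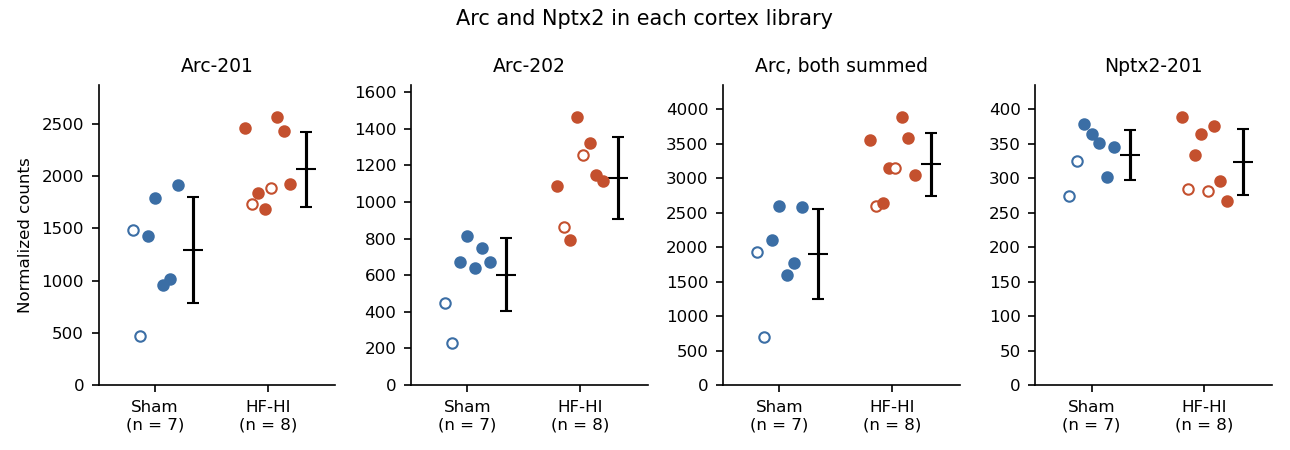
Normalized counts of Arc-201, Arc-202, their sum and Nptx2-201 in each library (y axis, from 0) for Sham (blue, n = 7) and HF-HI (red, n = 8), with mean and SD as black bars. Open points are the 4 libraries with over 1000 normalized counts of Ttr. The Arc sum spans 695 to 2602 for Sham libraries and 2596 to 3890 for HF-HI libraries, and the spans of Nptx2-201 are 274 to 378 and 268 to 389.

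Homer1 as a whole did not pass the test. Its 4 transcripts summed to 3885 ± 661 normalized counts in Sham (SD, n = 7) and 4068 ± 488 in HF-HI (SD, n = 8). Sham libraries ran from 2981 through 3846 to 4892, and HF-HI libraries from 3088 through 4143 to 4669, so that the HF-HI range lay inside the Sham range. The log2 difference of summed reads was 0.08 ± 0.10 (SE, 95% confidence interval -0.14 to 0.29, limma-voom unadjusted p = 0.445, adjusted p = 0.861). Whether Homer1 and Arc differed in their response was not itself tested.

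The short forms were the part of Homer1 that varied most. Homer1-204, the Homer1a-type transcript that reads past the shared exon, took 1197 to 2548 in Sham, with a median of 1848, and 1403 to 2396 in HF-HI, with a median of 2026. Although 7 of 8 HF-HI libraries were above the Sham median, none was above every Sham library. The variance-stabilized difference was 0.10 ± 0.08 (SE, limma, unadjusted p = 0.269, adjusted p = 0.775). With striatal markers as a covariate it was 0.02 (limma unadjusted p = 0.834), and with log2 size factor 0.16 (limma unadjusted p = 0.138). Homer1-206, with its alternative last exon, took 214 to 576 in Sham, with a median of 365, and 289 to 595 in HF-HI, with a median of 536. The ranges overlapped from 289 to 576, and 1 of 8 HF-HI libraries was above every Sham library. The Homer1-206 difference was 0.10 ± 0.06 (SE, limma, unadjusted p = 0.131, adjusted p = 0.674). With striatal markers as a covariate it was 0.06 (limma unadjusted p = 0.324). With log2 size factor it was 0.16 (limma unadjusted p = 0.0452, adjusted p = 0.950). Sham replicate 2 was again the lowest of its group in both.

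The long forms stood the other way, by small amounts. Homer1-203 took 915 to 1213 in Sham, with a median of 1033, and 857 to 1127 in HF-HI, with a median of 969. The ranges overlapped over most of their length, with a difference of -0.04 ± 0.03 (SE, limma, unadjusted p = 0.304, adjusted p = 0.793). With striatal markers as a covariate the difference was -0.07 (limma unadjusted p = 0.0323, adjusted p = 0.537). With log2 size factor it was -0.05 (limma unadjusted p = 0.250). Homer1-202 took 538 to 769 in Sham, with a median of 616, and 528 to 618 in HF-HI, with a median of 584. Its HF-HI libraries were close together, with a coefficient of variation of 6.29% against 14.2% in Sham, and 1 of 8 exceeded the Sham median. The Homer1-202 difference was -0.04 ± 0.03 (SE, limma, unadjusted p = 0.169, adjusted p = 0.708). With striatal markers as a covariate it was -0.06 (limma unadjusted p = 0.0815), and with log2 size factor -0.02 (limma unadjusted p = 0.604).

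**Figure D3:**
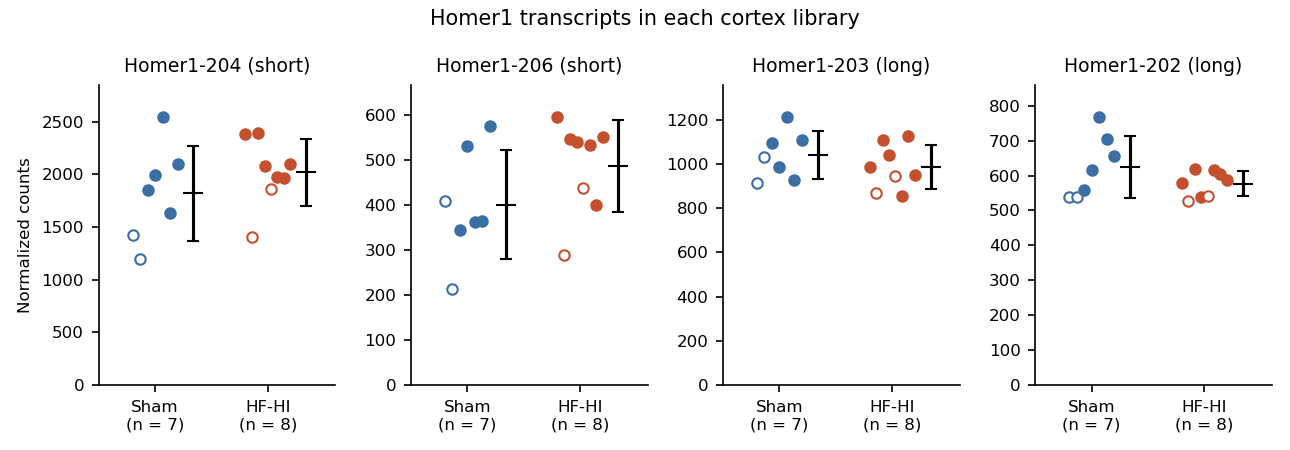
Normalized counts of the 4 listed Homer1 transcripts in each library (y axis, from 0) for Sham (blue, n = 7) and HF-HI (red, n = 8), with mean and SD as black bars and open points for the 4 libraries with over 1000 normalized counts of Ttr. The groups overlap in every panel, and the open points are the lowest of each group in Homer1-204.

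Per kilobase of transcript, the mean level in Sham was 423 normalized counts for Arc-201, 341 for Homer1-203, 318 for Homer1-204, 198 for Arc-202, 155 for Homer1-206, 146 for Homer1-202 and 132 for Nptx2-201. In HF-HI the means per kilobase were 676 for Arc-201, 371 for Arc-202, 353 for Homer1-204, 323 for Homer1-203, 189 for Homer1-206, 134 for Homer1-202 and 128 for Nptx2-201. Homer1-202 and Nptx2-201 were neighbours at the low end in both groups.

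The balance within Homer1 was measured as the share of its normalized counts that fell on the short forms. It was not corrected for transcript length, so it is a share of reads and not of RNA molecules. Homer1-204 has 5713 bases and Homer1-206 2580, against 3052 for Homer1-203 and 4287 for Homer1-202. This share was 56.6% ± 4.69 in Sham (SD, n = 7) and 61.3% ± 3.47 in HF-HI (SD, n = 8), a difference of 4.73 percentage points (exact permutation test, two-sided, p = 0.0361). Sham libraries ran from 47.3% through 57.0% to 61.2% and HF-HI libraries from 54.8% through 62.7% to 65.5%. Of the 8 HF-HI libraries 5 were above every Sham library, and the others fell within the Sham range. The summed short forms were 2220 ± 521 and 2506 ± 409 (exact permutation test, two-sided, p = 0.253, n = 7 and 8), and the summed long forms 1666 ± 168 and 1562 ± 118 (exact permutation test, two-sided, p = 0.188, n = 7 and 8). Neither sum alone passed the test.

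Of the single transcripts, Homer1-202 made up 16.3% ± 1.84 of the Homer1 counts in Sham and 14.3% ± 1.47 in HF-HI (exact permutation test, two-sided, p = 0.0407). In 5 of 8 HF-HI libraries the share was below every Sham library. The same test on all 4140 transcript shares of genes with several listed transcripts gave an unadjusted p below 0.05 for 322, or 7.78%, and none passed after adjustment, with an adjusted p of 0.610 for Homer1-202 (exact permutation test, Benjamini-Hochberg). The short-form share is a sum that has no counterpart in that table, so no adjusted p is given. It was 1 of 7 shares examined in Arc and Homer1, of which 2 had an unadjusted p below 0.05. Homer1-203 made up 27.2% ± 3.69 and 24.4% ± 2.47 (p = 0.0943), Homer1-204 46.3% ± 3.88 and 49.4% ± 2.11 (p = 0.0693), and Homer1-206 10.3% ± 2.53 and 11.9% ± 1.57 (p = 0.160), each by the exact permutation test, two-sided. Within the short forms, the part of Homer1-206 was 18.1% ± 3.76 in Sham and 19.3% ± 1.67 in HF-HI (exact permutation test, two-sided, p = 0.425).

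The short-form share was sensitive to single libraries. Its difference ran from 3.19 percentage points, without Sham replicate 2 (exact permutation test, p = 0.0803), to 5.66, and its p was above 0.05 when any 1 of Sham replicates 1, 2, 3 and 6 or HF-HI replicates 1, 3, 4, 6 and 8 was left out. Without the 4 libraries with high Ttr it was 3.90 points (exact permutation test, two-sided, p = 0.0390), with Sham at 58.6% ± 2.52 (n = 5) and HF-HI at 62.5% ± 2.57 (n = 6). Adjusted for log2 size factor it was 6.76 points (exact permutation test, p = 0.00233), and among libraries with a size factor above 1 it was 5.82 points (exact permutation test, p = 0.107). The Homer1-202 share was sensitive too, with p above 0.05 when any 1 of Sham replicates 1, 2 and 6 or HF-HI replicates 1, 3, 4, 5, 7 and 8 was left out (exact permutation tests, highest p = 0.0892).

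**Figure D4:**
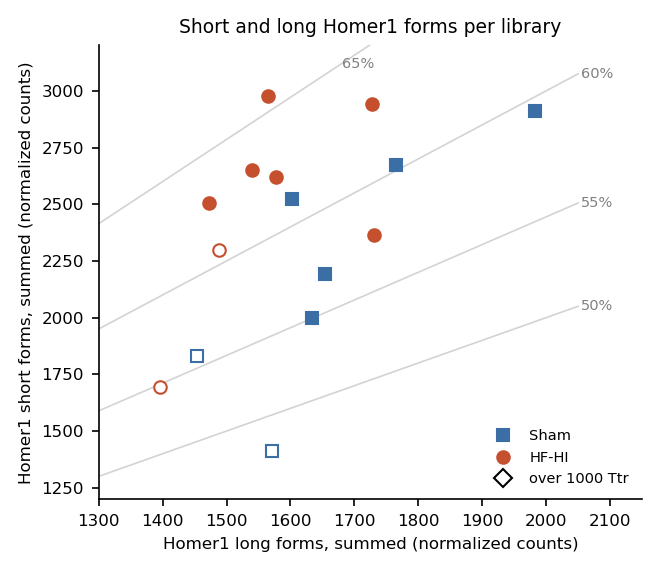
Summed short forms (y axis) against summed long forms (x axis) of Homer1 in normalized counts, 1 point a library, Sham as blue squares (n = 7) and HF-HI as red circles (n = 8). Grey lines join equal short-form shares of 50, 55, 60 and 65%. The share spans 54.8% to 65.5% for HF-HI and 47.3% to 61.2% for Sham, and the open symbols, with over 1000 normalized counts of Ttr, hold the lowest short-form sums of each group.

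The libraries with high Ttr held less of the short forms than the others of their group. In Sham, replicates 1 and 2 had 1829 and 1411 normalized counts of summed short forms, below the 1998 to 2911 of the other 5. In HF-HI, replicates 2 and 5 had 1693 and 2296, below the 2364 to 2977 of the other 6. The long forms of the 4 libraries lay at 1454 and 1570 in Sham and at 1396 and 1488 in HF-HI, against 1602 to 1982 and 1473 to 1731. For Arc the same split gave 695 and 1928 in Sham with high Ttr against 1593 to 2602 without. In HF-HI Arc was at 2596 and 3149 against 2634 to 3890, so that the values of both splits overlapped. High Ttr was found in 2 libraries of each group.

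Nptx2 did not pass the test and showed no separation. Nptx2-201 took 274 to 378 normalized counts in Sham, with a median of 345, and 268 to 389 in HF-HI, with a median of 315. The HF-HI range enclosed the Sham range. The means were 334 ± 36.3 (SD, n = 7) and 324 ± 47.6 (SD, n = 8), and the log2 difference of summed reads was -0.05 ± 0.09 (SE, 95% confidence interval -0.25 to 0.14, limma-voom unadjusted p = 0.562, adjusted p = 0.903). Its 173 to 537 reads per library were the fewest of the 3 genes. Its spread was that of an ordinary transcript of its level, with a Sham coefficient of variation of 10.9% beside a median of 10.4% for transcripts of like mean.

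Whether the 3 genes varied together from library to library was examined after the group means were subtracted. As the libraries fell into 2 clusters by Ttr, correlations were taken within the 11 libraries with low Ttr. There Arc and Homer1 gave Pearson's r = -0.26 (permutation p = 0.447) and Spearman's rho = -0.16 (permutation p = 0.633). Arc and Nptx2 gave r = 0.33 (permutation p = 0.325) and rho = 0.29 (permutation p = 0.385), and Homer1 and Nptx2 gave r = 0.22 (permutation p = 0.519) and rho = 0.07 (permutation p = 0.839). Arc and the short forms of Homer1 gave r = -0.10 (permutation p = 0.757) and rho = -0.16 (permutation p = 0.637). The short and the long forms gave r = 0.49 (permutation p = 0.125) and rho = 0.44 (permutation p = 0.183), and Arc and the long forms r = -0.51 (permutation p = 0.111) and rho = -0.42 (permutation p = 0.205). None of the 6 pairs passed in these 11 libraries, with adjusted p of 0.374 to 0.757 for r and 0.616 to 0.839 for rho. Without the 2 libraries farthest from the median of the first gene, r was -0.22, 0.22, 0.04, -0.11, 0.35 and -0.35 in the order given. Over all 15 libraries 2 of the 6 pairs passed by r, at an adjusted p below 0.05. Both were among the 3 pairs with short or long forms, which were added to the 3 planned pairs of genes. Arc and the short forms gave r = 0.62 (permutation p = 0.0162, adjusted p = 0.0486) and rho = 0.31 (permutation p = 0.252, adjusted p = 0.362), with r = 0.54 without the 2 farthest libraries. The short and the long forms gave r = 0.69 (permutation p = 0.00511, adjusted p = 0.0307) and rho = 0.71 (permutation p = 0.00401, adjusted p = 0.0241), with r = 0.68 without the 2 farthest. Arc and Homer1 gave r = 0.51 (permutation p = 0.0562, adjusted p = 0.0844) and rho = 0.29 (permutation p = 0.302), and Homer1 and Nptx2 gave r = 0.51 (permutation p = 0.0558, adjusted p = 0.0844) and rho = 0.50 (permutation p = 0.0620). Neither of the relations that passed did so once the 4 libraries with high Ttr were left out, a split chosen after seeing the data.

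The genes most like each of the 3 across all 15 libraries, again with group means subtracted, were sought among the other 7739. For Arc they were Fos (r = 0.93), Nr4a1 (r = 0.92), Trib1 (r = 0.89), Gm28036 (r = 0.85) and Gm10175 (r = 0.85). Fos and Nr4a1 encode immediate early transcription factors, and Trib1 a pseudokinase. Without Sham replicate 2 these values were 0.68, 0.77, 0.85, 0.19 and 0.09, so that the likeness of Gm28036 and Gm10175 rested on that library. For Homer1 they were Thrb (r = 0.89), Setbp1 (r = 0.85), Rock2 (r = 0.84), 9330159F19Rik (r = 0.83) and Kmt2c (r = 0.82), and within the 11 libraries with low Ttr 0.70, 0.75, 0.61, 0.50 and 0.39. For Nptx2 they were Gmeb2 (r = 0.81), Apba1 (r = 0.78), Lonp2 (r = 0.77), Znrf1 (r = 0.77) and Nxf1 (r = 0.76), and 0.76, 0.65, 0.62, 0.83 and 0.79 in those 11. These are the highest of 7739 values each, given as a description. Of the 15 genes, Fos (log2 difference 0.85, limma-voom unadjusted p = 0.00470, adjusted p = 0.291), Nr4a1 (0.63, unadjusted p = 0.00739, adjusted p = 0.329) and Trib1 (0.52, unadjusted p = 0.00909, adjusted p = 0.363) had an unadjusted p below 0.05, all higher in HF-HI. These were picked for likeness to Arc, and none of the genes picked for Homer1 or Nptx2 had such a p. Of all listed genes 9.43% had one, 5.19% higher and 4.24% lower.

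Genes known to act with the 3 were taken as 5 lists of partners, family members and regulators. Of 56 genes 48 were listed, with 73 transcripts. Of these 73, 13 had an unadjusted p below 0.05 by limma, 6 higher and 7 lower in HF-HI, or 17.8% beside 8.83% of all listed transcripts, and none passed after adjustment. The median variance-stabilized difference over the 73 was 0.00, as over all 10370.

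Among the Homer family and the partners of long Homer proteins, 3 of 17 transcripts had an unadjusted p below 0.05. Grm5-202, of the metabotropic glutamate receptor mGluR5 that long Homer proteins bind, was at 2331 ± 126 in Sham and 2164 ± 132 in HF-HI (limma unadjusted p = 0.0241, adjusted p = 0.504). Ryr2-201, of a ryanodine receptor calcium channel, was at 2636 ± 98.1 and 3231 ± 590 (limma unadjusted p = 0.00826, adjusted p = 0.405), above the Sham median in 8 of 8 HF-HI libraries. Its other listed transcript, Ryr2-202, was at 2168 ± 96.0 and 1813 ± 518 (limma unadjusted p = 0.0944), and the summed Ryr2 reads had a log2 difference of 0.07 ± 0.02 (SE, limma-voom unadjusted p = 0.00433, adjusted p = 0.291). Homer2, another scaffold of the family, had 398 ± 57.8 and 448 ± 127 for Homer2-201 (limma unadjusted p = 0.335) and 283 ± 20.1 and 252 ± 109 for Homer2-202 (limma unadjusted p = 0.361). Homer3 was not listed.

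Among partners of the Arc protein, 4 of 19 transcripts had an unadjusted p below 0.05. Camk2a-203, of the alpha subunit of calcium/calmodulin kinase II, was at 7779 ± 392 and 8585 ± 417 (limma unadjusted p = 0.00165, adjusted p = 0.311), above the Sham median in 8 of 8 HF-HI libraries. For the beta subunit, Camk2b-209 was lower, at 3131 ± 413 and 2655 ± 345 (limma unadjusted p = 0.0188), and Camk2b-210 higher, at 836 ± 373 and 1379 ± 436 (limma unadjusted p = 0.0145). The summed Camk2b reads had a log2 difference of 0.03 ± 0.03 (SE, limma-voom unadjusted p = 0.445) and the reads of these transcripts were divided by the authors' program. Rnf216-201, of a ubiquitin ligase known to target Arc protein, was at 337 ± 13.8 and 313 ± 9.19 (limma unadjusted p = 0.0138, adjusted p = 0.448), and 0 of 8 HF-HI libraries exceeded the Sham median.

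Among the pentraxin family and the AMPA receptor subunits it gathers, 1 of 13 transcripts had an unadjusted p below 0.05. This was Gria1-201, of the subunit GluA1, at 1255 ± 172 and 1066 ± 191 (limma unadjusted p = 0.0443, adjusted p = 0.555). Its other listed transcript, Gria1-202, stood the other way, at 1078 ± 99.9 and 1140 ± 179 (limma unadjusted p = 0.424). The summed Gria1 reads had a log2 difference of -0.09 ± 0.06 (SE, limma-voom unadjusted p = 0.185). Nptx1-201, of the sister pentraxin, was at 2236 ± 95.4 and 2327 ± 141 (limma unadjusted p = 0.174). The membrane-bound pentraxin receptor gave 528 ± 262 and 368 ± 186 for Nptxr-201 (limma unadjusted p = 0.155) and 2596 ± 272 and 2665 ± 272 for Nptxr-203 (limma unadjusted p = 0.616). Of the other activity-regulated effectors, 1 of 12 transcripts had such a p, Plk2-201, of a polo-like kinase of the synapse, at 1383 ± 120 and 1518 ± 65.4 (limma unadjusted p = 0.0138, adjusted p = 0.448).

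Among factors known to act at the Arc gene, 4 of 12 transcripts had an unadjusted p below 0.05. Egr1-202, of an activity-induced zinc finger factor, was at 1004 ± 263 and 1435 ± 173 (limma unadjusted p = 0.00180, adjusted p = 0.319), above the Sham median in 8 of 8 HF-HI libraries. Creb1, of the factor that binds the cAMP response element, was at 261 ± 93.0 and 395 ± 156 for Creb1-201 (limma unadjusted p = 0.0479) and at 448 ± 87.4 and 287 ± 129 for Creb1-202 (limma unadjusted p = 0.0268). The summed Creb1 reads gave a log2 difference of -0.05 ± 0.07 (SE, limma-voom unadjusted p = 0.533). Mef2a-208, of a myocyte enhancer factor active in neurons, was at 1453 ± 41.8 and 1324 ± 161 (limma unadjusted p = 0.0497, adjusted p = 0.565). Of this list, Egr1-202 and Npas4-201 were above the Sham median in every HF-HI library, as Arc was and as 3.8% of all transcripts were. Npas4-201 did not pass the test (166 ± 88.3 and 182 ± 30.2, limma unadjusted p = 0.419). In the same list, Creb1-202 was above its Sham median in 0 of 8 HF-HI libraries and Mef2a-208 in 1 of 8.

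**Figure D5:**
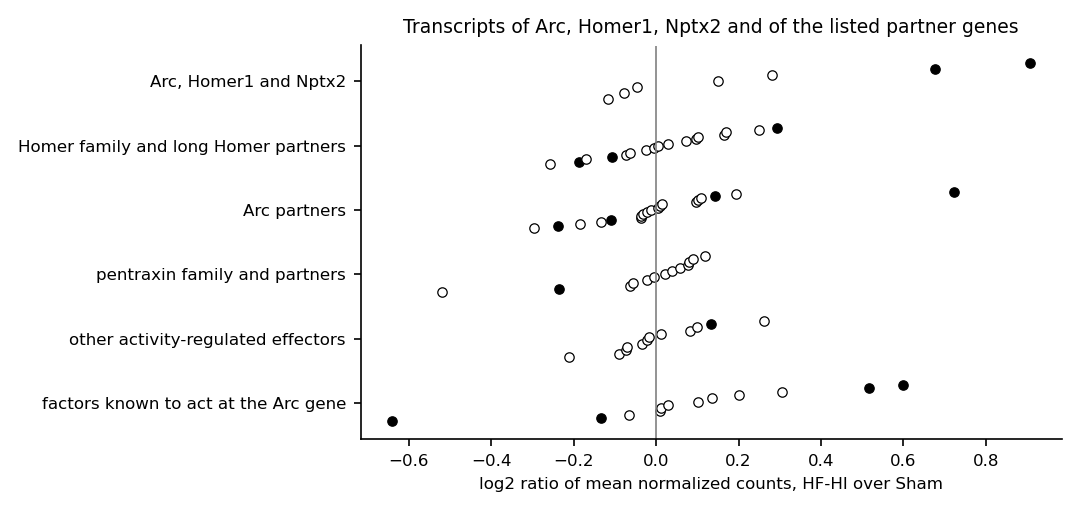
log2 ratio of mean normalized counts, HF-HI over Sham (x axis), for each listed transcript of Arc, Homer1 and Nptx2 and of the 5 partner lists (rows), ordered by value within a row. Filled points had an unadjusted p below 0.05 by limma, 2 of 7 in the top row and 13 of 73 in the rows below it, which lie on both sides of 0.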

How the data were processed

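Cortex RNA of 7 Sham and 8 HF-HI mice was sequenced by the authors from ribosomal RNA-depleted, stranded total RNA libraries. Per the labels and the study's methods, the authors aligned reads to mm10 with STAR, counted them per transcript with eXpress and normalized them with DESeq2. The deposited values are variance-stabilized values on a log2 scale, and the transcript annotation release is not given in the sources used here. The authors' transformation was inverted to normalized counts. Within each library these were whole multiples of 1 value, so 100.0% of values were whole reads within 0.1 reads, and the multiple gave the size factor. The lowest listed transcript averaged 108 normalized counts. Of 10370 transcripts, 10241 matched GENCODE M21 and 129 did not. No columns of other samples were present.

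Transcripts were tested with limma 3.58.1 (lmFit, eBayes with trend) in R 4.3.3 on the deposited log2 values, and summed reads per gene with limma's voom using the size factors, with group as the only term, two-sided, Benjamini-Hochberg over all features at 0.1. An unadjusted p below 0.05 was also counted. Shares were tested by exact permutation over 6435 splits, and correlations with 100000 permutations on log2 of summed normalized counts plus 1. Both limma tests were tested on simulated data. The genes, partner and marker lists, and the rule for named genes (every transcript of the 3 genes, partner transcripts with an unadjusted p below 0.05, a few family members whatever their values, and the 5 genes most correlated with each) were chosen with earlier results of these data known. The labels number the libraries without naming mice, so p-values measure the spread between these libraries. All 49 pairs of libraries of a group differed by more than sampling noise (chi-square per degree of freedom 9.55 to 36.6). Alternatives covered scaling, filters, weights, depth, striatal markers, replicate numbers and left-out libraries. The values of 1 partner transcript with such a p are not reported here.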

Additional observations from a re-analysis of the deposited data

Results flagged for a closer look

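In Sham, the share of Homer1 on the long form Homer1-203 was highest in replicate 2, at 34.6%, with the next library at 28.5%. It was flagged because that library lay far from the others of its group by Dixon's test at the 95% level. Of 38 groups of values examined this was the only 1 so flagged, and chance alone flags about 1 in 20 groups.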

How the results depend on the processing

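The count of Arc, Homer1 and Nptx2 transcripts at an unadjusted p below 0.05 was 2 and stayed between 1 and 3 in 29 alternatives. It was 1 among libraries with a size factor above 1, a split chosen after seeing the data. The count after adjustment was 0 in all 29. Arc summed reads kept their direction and an unadjusted p below 0.05 in all 26 alternatives, with log2 differences of 0.62 to 0.93. Homer1 and Nptx2 were above 0.05 in all 26, and their differences of -0.03 to 0.15 and -0.15 to 0.00 changed sign once each, with striatal markers as a covariate and with the replicate block. The partner count of 13 of 73 was 8 with striatal markers as a covariate, where 8.46% of all listed transcripts had such a p. It was 9 with log2 size factor as a covariate, beside 5.14% of all. With a size factor above 1, where fewer samples were tested, it was 7, beside 5.22% of all. The count of shares, 2, was 5 when adjusted for log2 size factor, 1 with a size factor above 1, 1 with the replicate block and 0 to 4 when libraries were left out in turn; the cause was not tested. Nptx2 had the fewest reads, 173 to 537 a library. Without the 4 libraries over 1000 Ttr, also chosen after seeing the data, the correlation of Arc with short forms turned from r = 0.62 to r = -0.10.

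No pairing by replicate number was seen over all transcripts, since deviations of libraries with the same number correlated at -0.14 to 0.09. The labels do not say what the numbers stand for, and whether they mark a shared batch was not tested. With the replicate block 891 of 10370 transcripts had an unadjusted p below 0.05, against 916 without it, and the short-form share gave 4.46 points (exact sign permutation, p = 0.0781).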
